A study of Mus musculus with 6 samples.

Results

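The 10 genes described here encode plasma membrane amino acid transporters of the SLC7, SLC38 and SLC1 carrier families. They were chosen by symbol, as Slc7a1, Slc7a2, Slc7a5, Slc7a6, Slc7a7, Slc7a8, Slc38a1, Slc38a2, Slc1a4 and Slc1a5 alone, by a rule that uses no measured value, although earlier results of these data were known when the list was drawn up. All 10 were found among the 26359 genes of the deposited table. RNA was sequenced from AML12 cells, a hepatocyte line derived from mice that carry a human TGF-alpha transgene. The sh-1 group held 3 libraries, named for a short hairpin RNA in a study of TM9SF1, a transmembrane protein whose role in autophagy during liver ischemia and reperfusion the study addresses. The sh-NC group held 3 libraries, labelled as the hairpin control. In their titles, the first group is called Sh-2 and the second by the cell line alone, so the effect of carrying a hairpin and the effect of the target cannot be told apart if the control cells had none. No treatment, time point or number of clones is given, and no label says that the libraries of a group came from separate cultures. The p-values therefore reflect library-to-library spread alone, and that spread could be technical.

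Amino acids do not diffuse through the plasma membrane and enter cells through carriers with overlapping preferences. The light chains of the SLC7 family, among them LAT1 (Slc7a5), are exchangers that reach the cell surface only when joined by a disulfide bond to a heavy chain, usually CD98 (Slc3a2). The cationic transporters of the same family carry arginine and lysine without a heavy chain, the SLC38 carriers couple glutamine and other small neutral amino acids to sodium, and the SLC1 carriers Slc1a4 and Slc1a5 exchange neutral amino acids. In many cell types a shortage of amino acids raises ATF4, a transcription factor with several of these carriers among its known targets, and leucine and arginine that enter the cell are sensed at the lysosome by mTORC1.

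Each library held 36997329 to 51334798 counts assigned to genes. Tm9sf1, the gene of the study's title, had 35.3, 36.8 and 36.5 CPM (counts scaled to a common library size by edgeR's TMM factors) in the sh-1 libraries and 47.2, 53.4 and 45.8 CPM in the sh-NC libraries, a log2 fold change of -0.43 (edgeR adjusted p = 0.00186). Corrected for GC content and transcript length it was -0.084 (edgeR adjusted p = 0.402), so the check on the labels depended on that correction. Of 7 hepatocyte markers, 5 were lower in sh-1 cells (Alb, Ttr, Trf, Krt8 and Krt18), 1 was higher (the transcription factor Hnf4a) and 1 was not called (Apoa1). Corrected for GC content and length, 3 were lower and 1 higher. Krt8, at -0.0048 (edgeR adjusted p = 0.961), and Trf, at -0.023 (edgeR adjusted p = 0.772), then lost their calls. The summed level of the 7 was 6696 to 8339 CPM in sh-1 libraries and 9808 to 12060 CPM in sh-NC libraries, mostly from Krt8 and Krt18. The secreted proteins Alb and Ttr, defining products of hepatocytes, were near 0, at 2.68 and 0.164 CPM in sh-1 cells and 4.43 and 2.09 CPM in sh-NC cells. The summed levels of 4 macrophage markers were 1.46 to 2.42 CPM in sh-1 libraries and 4.77 to 5.69 CPM in sh-NC libraries, and those of 4 endothelial markers 1.63 to 2.23 and 1.08 to 1.69 CPM. Within these sums, genes were called in opposite directions. Cd68 and Pecam1 were lower (log2 fold changes -2.51 and -2.82), and Csf1r and Cdh5 higher (1.54 and 1.34). The summed levels of 4 biliary markers were 1411 to 1598 CPM in sh-1 libraries and 1663 to 1897 CPM in sh-NC libraries. Of these, Krt7 and Sox9 were lower (log2 fold changes -0.83 and -1.625). Krt19, at 1057 CPM in sh-1 cells and 968.9 CPM in sh-NC cells, was not called. Corrected for GC content and length, its log2 fold change was 0.62 (edgeR adjusted p = 2.27e-06). The summed levels of 5 stellate and fibroblast markers were 7.64 to 10.05 CPM in sh-1 libraries and 7.56 to 8.51 CPM in sh-NC libraries. Col1a1 was higher (log2 fold change 1.185) and Des was not called. The part of these marker levels in the results below was not tested. Of 13197 genes tested, 65.5% passed an adjusted p of 0.05, with 33.3% higher and 32.2% lower in sh-1 cells. Across genes, fold change and transcript GC content were related (Spearman's rho = -0.50 across 11956 genes, which are not independent), and the part of this trend in the results below was not tested beyond the corrected values given with them.

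Promoter windows of 3 genes are shown. Slc3a2 had the lowest fold change of the transporters and heavy chains. Slc1a4, lower in sh-1 cells, and Slc7a7, higher, were the only genes with a motif match in a window. Slc7a1 and Slc7a6, also lower, had windows without a match and are not shown, so the display was not set by fold change alone. The windows shown come from RefSeq on GRCm38.p6 and all lie on the minus strand. Each runs 5' to 3' along the gene from 250 bases before to 50 bases after the start site. Capitals mark matches to TGATGNAA, the core of the element that ATF4 and its partners of the C/EBP family are known to bind, searched on both strands. The windows are Slc7a7 at chr14:54417895-54418194, Slc1a4 at chr11:20332664-20332963 and Slc3a2 at chr19:8713848-8714147.
Slc7a7: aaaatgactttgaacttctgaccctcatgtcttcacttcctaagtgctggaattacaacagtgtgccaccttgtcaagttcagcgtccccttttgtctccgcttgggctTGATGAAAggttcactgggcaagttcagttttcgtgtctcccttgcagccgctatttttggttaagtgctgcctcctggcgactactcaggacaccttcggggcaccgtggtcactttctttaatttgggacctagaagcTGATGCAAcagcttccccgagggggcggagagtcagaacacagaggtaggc
Slc1a4: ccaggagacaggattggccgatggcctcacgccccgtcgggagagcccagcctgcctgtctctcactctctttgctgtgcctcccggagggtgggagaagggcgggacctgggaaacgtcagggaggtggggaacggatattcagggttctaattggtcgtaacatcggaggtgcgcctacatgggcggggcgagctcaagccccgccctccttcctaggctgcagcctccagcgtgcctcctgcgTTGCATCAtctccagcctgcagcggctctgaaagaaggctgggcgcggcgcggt
Slc3a2: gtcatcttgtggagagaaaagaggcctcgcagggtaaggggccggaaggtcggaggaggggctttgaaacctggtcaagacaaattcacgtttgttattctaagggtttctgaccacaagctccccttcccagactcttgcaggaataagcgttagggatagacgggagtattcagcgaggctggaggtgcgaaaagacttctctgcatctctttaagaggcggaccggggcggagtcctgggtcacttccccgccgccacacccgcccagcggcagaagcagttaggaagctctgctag
The Slc7a7 window held TGATGAAA with its first base 141 bases before the start site and TGATGCAA from 1 base before it. These positions are counted from the RefSeq start site of that window. The whole window lies before the 5' end of Slc7a7 in GENCODE M21, at 54417780. The Slc1a4 window held the motif once, on the opposite strand, where it reads TTGCATCA along the gene. No match stood in the Slc3a2 window. That window lies inside the gene, whose 5' end in GENCODE M21 is at 8723369, and the sequence at that end was not searched. RefSeq windows were used for 8 of 12 genes, the 10 transporters and 2 heavy chains, with 14 windows in all. Slc7a7 has 5 windows, of which the one with the most matches is shown. Another overlaps it and held the nearer of its sites again, and the other 3 held no match. No TGATGNAA stood in the windows of Slc7a1, Slc7a6, Slc7a8, Slc38a2 and Slc3a1, and none of the 14 windows held the E-box CACGTG or the cyclic AMP element TGACGTCA. Among 32851 promoter windows of the same length, 3.97% held TGATGNAA, 7.15% held CACGTG and 1.79% held TGACGTCA. A match describes the letters only. No window was used for Slc7a5, Slc7a2, Slc38a1 and Slc1a5.

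The light chain LAT1 and the heavy chain CD98 were both lower in sh-1 cells. Slc7a5 (chr8:121881150-121907694, GRCm38, minus strand), the exchanger that brings leucine and other large neutral amino acids into cells, had 48.6, 45.1 and 42.2 CPM in the sh-1 libraries and 145.6, 152.5 and 152.5 CPM in the sh-NC libraries. All sh-1 libraries were low and all sh-NC libraries high, and the groups did not overlap. Its mean was 45.3 ± 3.19 CPM in sh-1 cells and 150.2 ± 3.95 CPM in sh-NC cells (SD, n = 3 each), and its log2 fold change was -1.73 with an SE of 0.08 (edgeR adjusted p = 1.60e-08). Of the 10 transporters it had the lowest fold change. Slc3a2 (chr19:8706882-8723369, minus strand), the partner that carries LAT1 and other light chains to the surface, had 417, 340 and 340 CPM in the sh-1 libraries and 1985, 2151 and 2209 CPM in the sh-NC libraries. The groups were far apart, with the level of sh-1 cells 5.78-fold lower (log2 fold change -2.53 ± 0.11, SE; edgeR adjusted p = 8.50e-09). Slc3a2 ranked 296 of the 13197 tested genes counted from the lowest fold change. In bulk RNA, fewer cells that express a gene and less of its RNA per cell cannot be told apart, which holds for every level given here.

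Slc7a8 (chr14:54722209-54781946, minus strand), which encodes LAT2, the light chain with a wider range of neutral amino acids, was close to the detection limit. It had 44, 35 and 21 counts in the sh-1 libraries and 22, 16 and 33 counts in the sh-NC libraries. The groups overlapped, and the log2 fold change of 0.56 had a 95% interval of -0.51 to 1.62 (edgeR adjusted p = 0.336). The other heavy chain, Slc3a1, which joins a light chain for cystine and cationic amino acids in kidney and gut, was also low, with 0.456, 0.465 and 0.287 CPM in sh-1 libraries and 0.508, 0.918 and 0.582 CPM in sh-NC libraries. Its log2 fold change was -0.72 ± 0.52 (SE; edgeR adjusted p = 0.244). Of its 2271 exon bases, 601 are also exon of Prepl on the opposite strand, and whether the authors counted by strand is not given in the sources used here. Prepl had 1765, 2089 and 2126 counts in the sh-1 libraries and 568, 423 and 613 counts in the sh-NC libraries.

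Both light chains of system y+L, which exchange cationic for neutral amino acids together with CD98, were called, in opposite directions. Slc7a6 (chr8:106168857-106198706, plus strand), which encodes y+LAT2, had 103.3, 90.2 and 89.5 CPM in the sh-1 libraries and 169.2, 147.5 and 147.4 CPM in the sh-NC libraries. The highest sh-1 library was below the lowest sh-NC library, and the log2 fold change was -0.71 ± 0.09 (SE; edgeR adjusted p = 2.11e-05). Slc7a7 (chr14:54369442-54417780, minus strand), which encodes y+LAT1, the carrier lost in the human disease lysinuric protein intolerance, had 31.9, 32.3 and 33.5 CPM in the sh-1 libraries and 22.7, 22.6 and 22.2 CPM in the sh-NC libraries. The sh-1 libraries were all higher, and it was the single member that rose, with a log2 fold change of 0.54 with an SE of 0.10 (edgeR adjusted p = 0.000447). Of the 3315 exon bases of Slc7a7, 232 are also exon of Oxa1l on the opposite strand, and reads of both cannot be told apart there unless strand was used. Oxa1l, which encodes a mitochondrial membrane insertase, had 80.0 ± 3.07 CPM in sh-1 cells and 103.9 ± 8.30 CPM in sh-NC cells (SD, n = 3 each), which is the opposite direction.

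**Figure D1:**
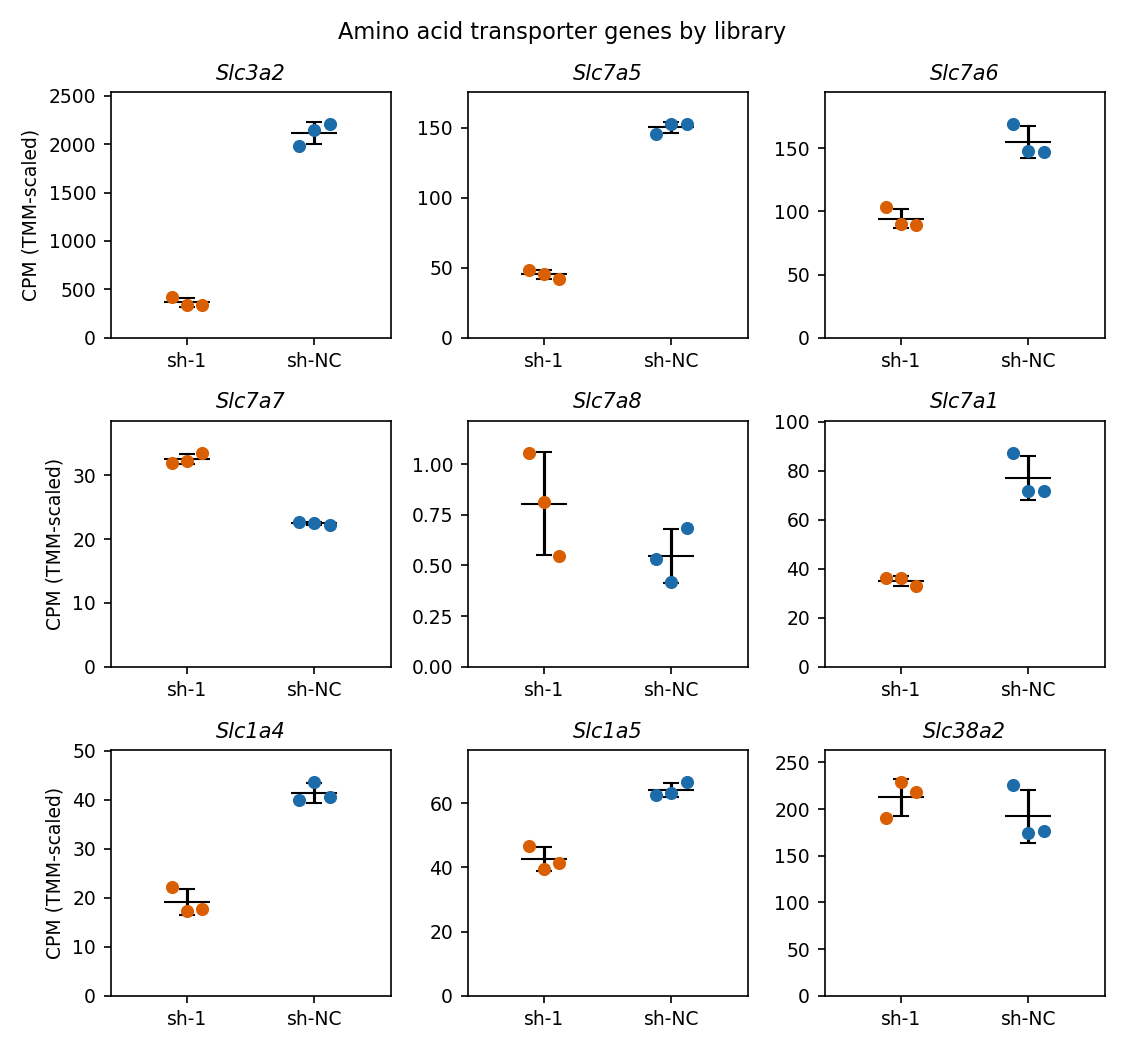
CPM per library (linear axes from 0) of Slc3a2 and 8 transporters, with sh-1 left of sh-NC in each panel; points are libraries, wide lines group means and error bars the SD (n = 3). The sh-1 points of Slc3a2 (340 to 417 CPM) and Slc7a5 (42.2 to 48.6 CPM) sit well below the sh-NC points, those of Slc7a7 sit above, and those of Slc38a2 and Slc7a8 overlap.

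The cationic amino acid transporter CAT1 was lower in sh-1 cells, and CAT2 was barely detected. Slc7a1 (chr5:148327410-148399904, minus strand), the widespread uniporter of arginine and lysine, had 36.3, 36.1 and 32.8 CPM in the sh-1 libraries and 87.2, 71.8 and 71.5 CPM in the sh-NC libraries. The groups did not overlap, and the level in sh-1 cells was 2.19-fold lower (log2 fold change -1.13 ± 0.10, SE; edgeR adjusted p = 1.34e-06). Slc7a2 (chr8:40862396-40922308, plus strand), the cationic transporter of hepatocytes in the liver, had 0, 8 and 0 counts in the sh-1 libraries and 2, 0 and 3 counts in the sh-NC libraries. These counts were too low for a test. A count of 0 allows up to 3 counts, which is 0.0723 and 0.0811 CPM in the sh-1 libraries with none and 0.0760 CPM in the sh-NC library with none, for counting error only.

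Both neutral amino acid exchangers of the SLC1 family were lower in sh-1 cells. Slc1a4 (chr11:20302180-20332713, minus strand), which encodes ASCT1, a carrier of serine, alanine and cysteine, had 22.1, 17.4 and 17.8 CPM in the sh-1 libraries and 39.9, 43.7 and 40.7 CPM in the sh-NC libraries. The groups did not overlap, with sh-1 cells 2.17-fold lower (log2 fold change -1.12 ± 0.12, SE; edgeR adjusted p = 4.68e-06). Slc1a5 (chr7:16781340-16798274, plus strand), which encodes ASCT2, a glutamine exchanger abundant in many proliferating cells, had 46.8, 39.5 and 41.4 CPM in the sh-1 libraries and 62.6, 63.3 and 66.7 CPM in the sh-NC libraries. All sh-1 libraries were lower, with a log2 fold change of -0.59 with an SE of 0.10 (edgeR adjusted p = 0.000142). Corrected for GC content and length, the fold change of Slc1a5 was -0.11 (edgeR adjusted p = 0.222), so its call was lost. The GC content of its transcript, 56.5%, was the highest of the 10.

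Neither SLC38 carrier among the 10 transporters was called. Slc38a2 (chr15:96687392-96699730, minus strand), which encodes SNAT2, a carrier known to be induced when amino acids are scarce, had 190.4, 228.9 and 218.0 CPM in the sh-1 libraries and 225.3, 174.6 and 176.7 CPM in the sh-NC libraries. The groups overlapped through sh-NC replicate 1, and the log2 fold change was 0.14 ± 0.11 (SE; edgeR adjusted p = 0.264) with a 95% interval of -0.09 to 0.38. Without sh-NC replicate 1 it was 0.28 (edgeR adjusted p = 0.0176). Corrected for GC content and length the sign turned, to -0.62 (edgeR adjusted p = 1.08e-06), so no direction can be given for this gene. Slc38a1 (chr15:96571418-96642913, minus strand), which encodes SNAT1 and lies 44.5 kb from Slc38a2, had 36, 0 and 14 counts in the sh-1 libraries and 0, 8 and 14 counts in the sh-NC libraries. Both groups ranged down to 0, and the log2 fold change of 1.26 had a 95% interval of -1.26 to 3.78 (edgeR adjusted p = 0.357).

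**Figure D2:**
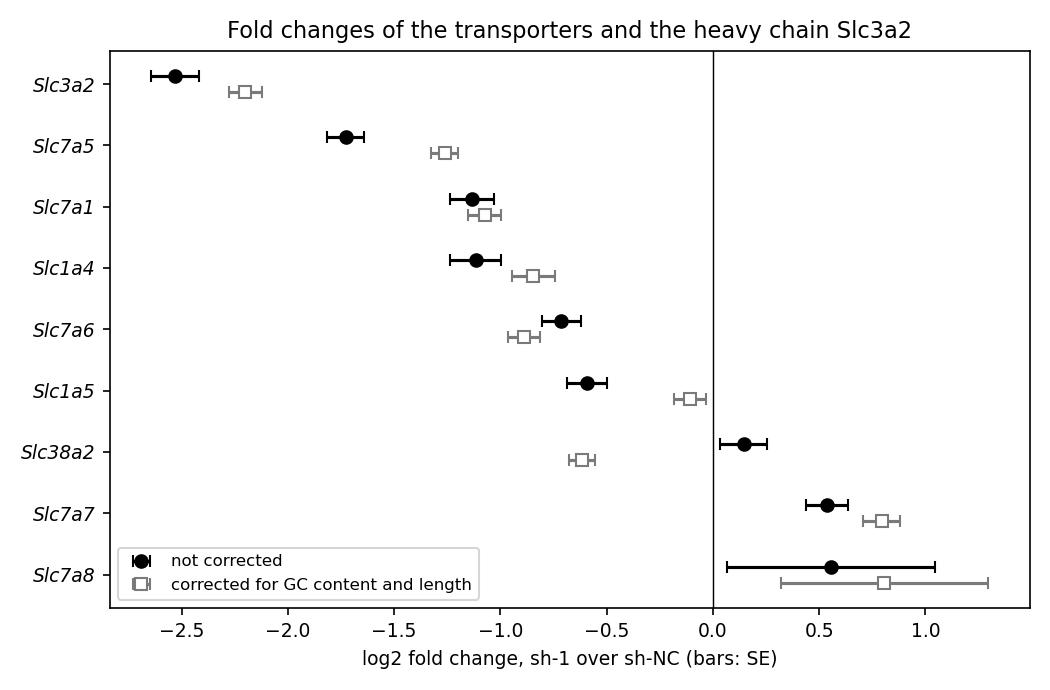
Log2 fold change, sh-1 over sh-NC, of Slc3a2 and 8 tested transporters, with SE as bars; filled circles are uncorrected and open squares corrected for GC content and transcript length. Slc38a1 is left out for its wide error. The fold changes of Slc3a2, Slc7a5, Slc7a1, Slc1a4 and Slc7a6 lie below 0 in both fits and that of Slc7a7 above 0 in both, whereas Slc38a2 is at -0.62 corrected and 0.14 uncorrected, and Slc1a5 at -0.11 and -0.59.

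Of the 10 transporters, 9 had enough counts to be tested. Among these, 5 fell (Slc7a5, Slc7a1, Slc1a4, Slc7a6 and Slc1a5), 1 rose (Slc7a7) and 3 did not pass (Slc38a2, Slc7a8 and Slc38a1), where 32.2% of all tested genes fell, 33.3% rose and 65.5% passed in either direction. The libraries of the groups did not overlap for 6 of the 9, against 70.3% of all tested genes, so the shares called in either direction and separated were near the background, and the share that fell was above it. The median log2 fold change of the 9 was -0.59, against -0.00065 over all tested genes. After correction for GC content and length, 32.9% of 11956 genes were higher and 34.6% lower in sh-1 cells, and of the transporters 1 was higher and 5 lower. These 5 were not the same set, since Slc1a5 lost its call and Slc38a2 gained one at -0.62, and 4 were lower in both fits. The share of all genes lower in both fits was not counted. Slc7a5 at -1.26, Slc7a1 at -1.07, Slc7a6 at -0.89 and Slc1a4 at -0.85 kept their calls, as did Slc7a7 at 0.79 and Slc3a2 at -2.20. Their direction was the same in every alternative run, scalings included.

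Per transcript length, as FPKM, the order of the transporters differed between the groups. The correction for GC content and length was not applied to these levels. In sh-1 cells Slc38a2 was the highest, with 39.3, 48.9 and 46.5 FPKM, followed by Slc7a6 at 25.1 ± 1.55 FPKM, and by Slc7a7 at 16.0 ± 0.449 and Slc1a5 at 15.1 ± 1.06 FPKM, whose ranges overlapped (SD, n = 3 each). Slc7a5 stood below these at 12.7 ± 0.684 FPKM in sh-1 cells, above Slc1a4 at 4.81 ± 0.550 and Slc7a1 at 4.80 ± 0.237 FPKM, which could not be ordered. In sh-NC cells Slc7a5 at 40.1 ± 0.511, Slc7a6 at 39.8 ± 4.13 and Slc38a2 at 38.9 ± 7.15 FPKM overlapped in range and stood at the top. Slc1a5 followed in sh-NC cells at 21.8 ± 0.383 FPKM, and then Slc7a7 at 10.5 ± 0.657, Slc7a1 at 10.1 ± 1.52 and Slc1a4 at 9.98 ± 0.459 FPKM, again with overlapping ranges. Slc7a8, Slc38a1 and Slc7a2 were the lowest in both groups, with mean levels of 0.192, 0.0533 and 0.00780 FPKM in sh-1 cells and 0.122, 0.0207 and 0.00357 FPKM in sh-NC cells.

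**Figure D3:**
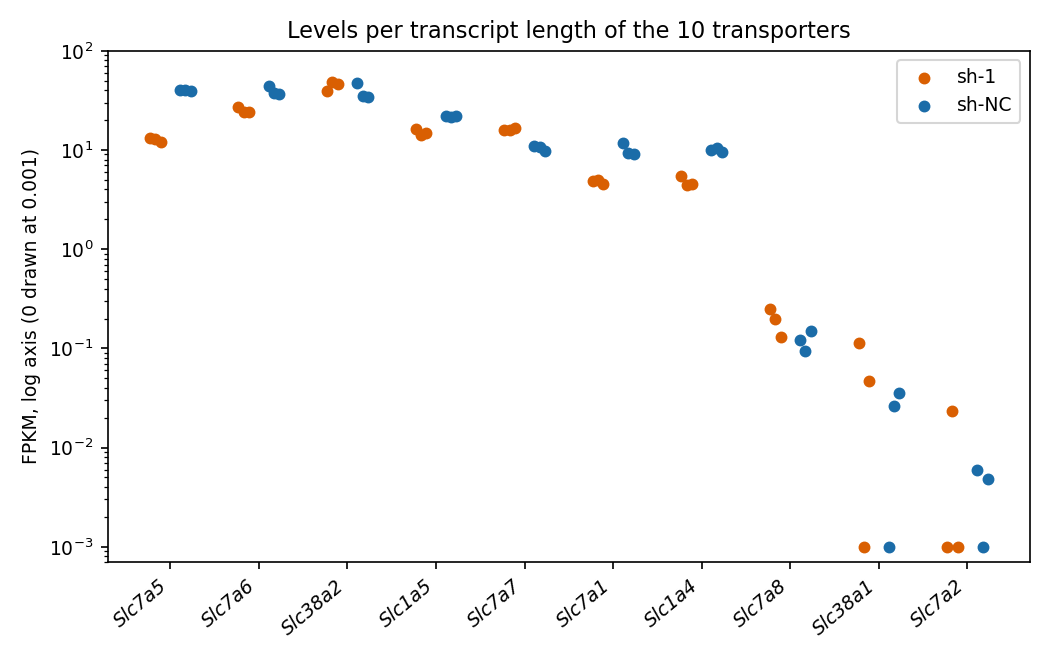
FPKM per library (log axis, values of 0 drawn at 0.001) of the 10 transporters, with sh-1 left of sh-NC; each point is a library. Slc7a5 lies among the highest in sh-NC libraries (mean 40.1 FPKM) and below Slc38a2, Slc7a6, Slc7a7 and Slc1a5 in sh-1 libraries (mean 12.7 FPKM).

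The summed level of the 10 transporters was 123.6 ± 1.72 FPKM in sh-1 cells and 171.2 ± 13.8 FPKM in sh-NC cells (SD, n = 3 each). Slc7a5 made up 10.2% of it in sh-1 cells and 23.5% in sh-NC cells, and Slc38a2 36.3% and 22.6%. These shares are not corrected for GC content and length. With that correction the log2 fold change of Slc38a2 changed sign, from 0.14 to -0.62. The heavy chain Slc3a2 stood above the sum of its expressed light chains Slc7a5, Slc7a6, Slc7a7, Slc7a8 and Slc7a11 in every library. Its level over that sum was 3.69, 3.33 and 3.23 in the sh-1 libraries and 10.7, 11.8 and 12.4 in the sh-NC libraries, without overlap. Ratios within pairs of related carriers are built from the levels above and are no separate evidence. The groups did not overlap in the ratios that could be formed. For Slc7a6 over Slc7a7 this had to be so, since both genes separated the groups, in opposite directions. The ratio of Slc7a6 to Slc7a7 was 1.57 in sh-1 cells and 3.80 in sh-NC cells, a difference of -1.27 on the log2 scale. The ratio of Slc7a5 to Slc7a8 differed by -2.29 on the log2 scale, with Slc7a8 near the detection limit, and that of Slc1a4 to Slc1a5 by -0.53, at 0.317 in sh-1 cells and 0.458 in sh-NC cells. Each of these 3 ratios gave an exact two-sided permutation p of 0.1, the smallest that 3 libraries against 3 allow, and 0.1 after Benjamini-Hochberg adjustment. The pairs of Slc7a1 with Slc7a2 and of Slc38a2 with Slc38a1 gave no ratio, because some libraries were listed at 0.

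Of 20 further amino acid carriers with enough counts, 7 were higher, 6 lower and 7 not called, with a median log2 fold change of 0.29. These shares are near the 33.3% higher and 32.2% lower among all tested genes. Slc43a2, a uniporter of large neutral amino acids that needs no heavy chain (LAT4), had 46.9 ± 6.32 CPM in sh-1 cells and 10.4 ± 1.27 CPM in sh-NC cells (SD, n = 3 each), a log2 fold change of 2.17 (edgeR adjusted p = 7.61e-08). Slc38a6 also rose, with 26.3 ± 1.87 CPM in sh-1 cells and 8.02 ± 0.352 CPM in sh-NC cells (log2 fold change 1.71, edgeR adjusted p = 2.48e-07). Slc1a2, a glutamate carrier, was at 4.37 ± 0.718 CPM in sh-1 cells and 1.73 ± 0.516 CPM in sh-NC cells (log2 fold change 1.34, edgeR adjusted p = 0.00111). Slc6a19, a sodium-coupled carrier of neutral amino acids, rose by 1.20 on the log2 scale. The fold changes of Slc43a2, Slc38a6, Slc1a2 and Slc6a19 stayed above 0 after the correction, at 2.37, 1.09, 0.64 and 1.12.

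Among carriers that fell were Slc36a1, a proton-coupled carrier of small amino acids found on lysosomes and the plasma membrane, at 14.2 ± 1.78 CPM in sh-1 cells and 37.7 ± 0.349 CPM in sh-NC cells (SD, n = 3 each). Its log2 fold change was -1.42 (edgeR adjusted p = 6.75e-07), and those of the glycine carrier Slc6a9 and the GABA and taurine carrier Slc6a13 were -1.06 and -2.94. Corrected for GC content and length, the values of Slc36a1, Slc6a9 and Slc6a13 were -1.15, -0.56 and -2.57. Slc6a13 was low, with 6, 7 and 4 counts in the sh-1 libraries and 59, 24 and 56 counts in the sh-NC libraries. Slc38a7, a lysosomal glutamine carrier, fell by 0.93 on the log2 scale, to 34.1 ± 3.73 CPM in sh-1 cells against 64.8 ± 3.22 CPM in sh-NC cells, and its corrected fold change was -0.51. Slc38a10 had a log2 fold change of -0.43 (edgeR adjusted p = 0.000628), which was 0.059 after the correction. Slc38a9, the lysosomal arginine sensor, had -0.36 (edgeR adjusted p = 0.0513), but -1.13 after the correction (edgeR adjusted p = 3.48e-05), and it also passed with DESeq2 size factors, with the DESeq2 Wald test and without sh-1 replicate 1. Slc38a3 had -0.21, which turned to 0.21 after the correction, and passed in neither fit. Slc7a11, the cystine and glutamate exchanger, had 21.2, 14.8 and 18.6 CPM in sh-1 libraries and 13.2, 11.3 and 11.7 CPM in sh-NC libraries, with a log2 fold change of 0.60 (edgeR adjusted p = 0.00465) that turned to -0.54 after the correction. Slc7a4 and Slc7a15, at 1.63 and 0.241 CPM in sh-1 cells and 1.45 and 0.122 CPM in sh-NC cells, were not called. Of the 5 tested lysosomal carriers, 1 rose and 3 fell, against 33.3% and 32.2% of all tested genes. The lysosomal carrier of cationic amino acids, Pqlc2, had a log2 fold change of -0.67 that was -0.21 after the correction, and the cystine carrier Ctns had 0.37 (edgeR adjusted p = 0.0227), with an edgeR adjusted p of 0.0903 without sh-1 replicate 3 and 0.0622 without sh-NC replicate 1.

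Of 19 tested genes of the amino acid response, 12 fell, 4 rose (Ddit4, Cebpg, Vldlr and Eif2ak4) and 3 were not called, where 32.2% of all tested genes fell and 33.3% rose. ATF4 is known to drive this response, but the list also holds Atf4 and the kinase gene Eif2ak4, so it is not a list of ATF4 targets alone. The median log2 fold change was -0.63, and -0.28 after the correction. After the correction 11 fell and 3 rose, where 34.6% of 11956 genes were lower and 32.9% higher. Called the same way in both fits were 9 that fell and 3 that rose, a share that was not counted over all genes. Cebpg was not among them, since its log2 fold change of 0.57 turned to -0.27 after the correction (edgeR adjusted p = 0.0165). Atf4 itself was at 159.8 ± 6.62 CPM in sh-1 cells and 445.9 ± 12.6 CPM in sh-NC cells (SD, n = 3 each), a log2 fold change of -1.48 (edgeR adjusted p = 1.97e-08). Sesn2, a leucine sensor upstream of mTORC1, was at 51.8 CPM in sh-1 cells and 170.1 CPM in sh-NC cells, Ddit3, the stress factor CHOP, at 6.95 and 25.1 CPM, and the mitochondrial folate enzyme Mthfd2 at 41.2 and 99.5 CPM. Atf3, a stress-induced transcription factor, had the lowest log2 fold change of the list, at -3.52.

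Of 22 tested genes of amino acid sensing by mTORC1, 8 rose, 6 fell and 8 were not called, with a median log2 fold change of 0.03. The shares that rose and fell are near the 33.3% and 32.2% of all tested genes. Wdr24, a subunit of the GATOR2 complex, had a log2 fold change of -1.45 (edgeR adjusted p = 3.34e-07) and Nprl3, of GATOR1, -0.59, while Sesn3 had 1.14 and Bmt2, a sensor of S-adenosylmethionine, 1.32. After the correction Wdr24 was at -0.99, Nprl3 at -0.25, Sesn3 at 0.39 and Bmt2 at 0.16, which was not called. Of 11 tested enzymes that use arginine and glutamine, 3 rose, 4 fell and 4 were not called, again near the 33.3% and 32.2% of all tested genes. Nos2, which makes nitric oxide from arginine, was at 12.2 CPM in sh-1 cells and 2.05 CPM in sh-NC cells (log2 fold change 2.58, edgeR adjusted p = 5.88e-07). Glud1, glutamate dehydrogenase, rose by 0.69 on the log2 scale. The log2 fold changes of the transaminases Got1 and Oat and of the polyamine enzyme Odc1 were -0.53, -0.46 and -0.50, and -0.30, -0.73 and -0.25 after the correction.

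**Figure D4:**
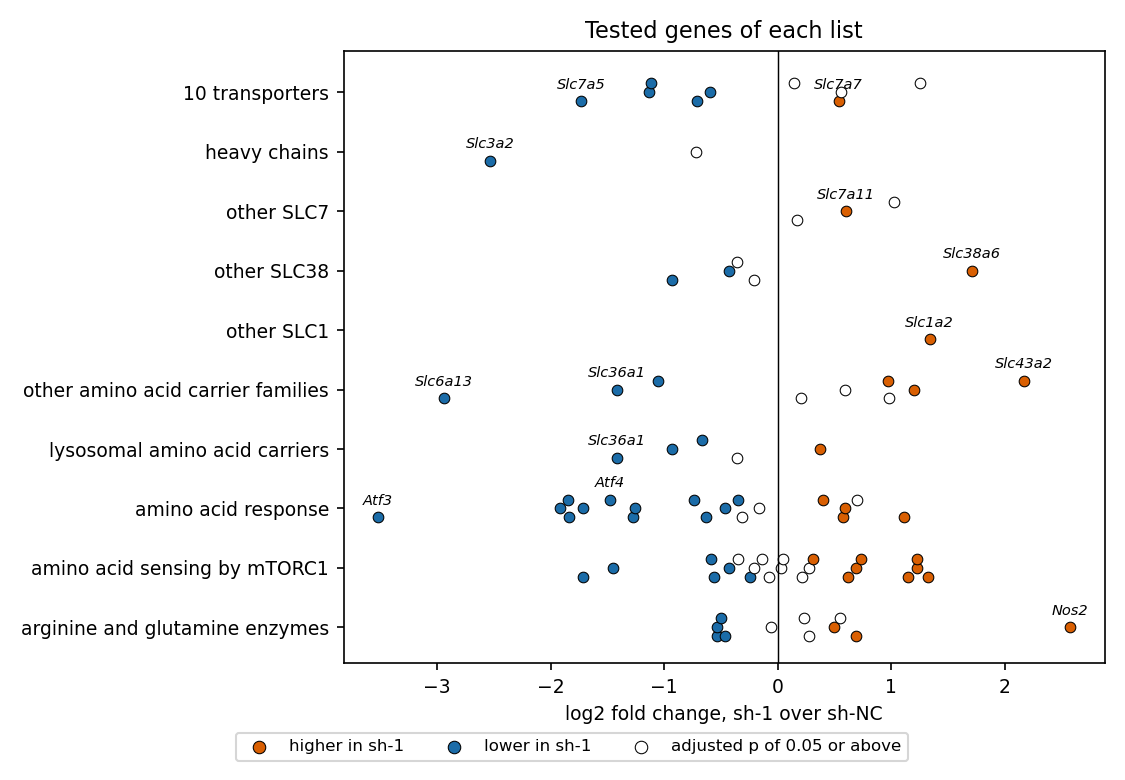
Log2 fold change, sh-1 over sh-NC, of every tested gene of the transporters, the heavy chains and the related lists; filled points passed an adjusted p of 0.05 (orange higher, blue lower in sh-1) and open points did not. Slc7a7 is the single filled point above 0 among the 10 transporters, while other carriers lie on both sides, from Slc6a13 at -2.94 to Slc43a2 at 2.17. The level of Slc6a13 was low, at 0.137 CPM in sh-1 cells and 1.07 CPM in sh-NC cells.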

How the data were processed

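Poly(A) RNA was captured on oligo(dT) beads, per the labels' protocols. The submitters' processing notes name HISAT2, StringTie and GRCm38; tool versions and counting settings were not given in the sources used here. Counts per gene were deposited as whole numbers, unnormalised. FPKM, which the authors scaled for length and depth, stand beside them, per the file headers. The authors' own comparison of A against B was not used, since A and B are not tied to samples. Of 26369 rows, 26359 with an identifier were used. Groups came from the cell line label.

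Counts were fitted in R 4.3.3 with edgeR 4.0.16 (filterByExpr, TMM, robust quasi-likelihood test, group alone), with two-sided p-values adjusted by Benjamini-Hochberg over 13197 genes and a threshold of 0.05. CPM are scaled by TMM. The correction entered natural splines of GC content and log2 length (GENCODE M21) as an offset for 11956 genes; it also removes real changes common to genes of like GC content or length. DESeq2 1.42.0 and limma 3.58.1 served as alternatives. Coordinates are those of GENCODE M21. The edgeR steps of the main fit were tested on simulated counts in which few genes changed, unlike these data. The correction, the alternative fits and the permutation test were not tested in this way. The 10 members, the gene lists, the correction and the rule for named genes were chosen with earlier results of these data known. The rule took all members, both heavy chains, every tested carrier of SLC7, SLC38 and SLC1, and up to 5 called genes of each other list by adjusted p. Genes of the amino acid response that rose were named beyond this rule. No set test was run.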

Additional observations from a re-analysis of the deposited data

How the results depend on the processing

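Slc3a2, Slc7a5, Slc7a1, Slc7a6, Slc1a4 and Slc7a7 kept their direction and call with DESeq2 size factors, no filter on low counts, the DESeq2 Wald test, limma on FPKM, the correction for GC content and length, and each library left out. Corrected, Slc38a2 turned to -0.62 and Slc1a5 weakened to -0.11; of the other SLC7 carriers 0 were then higher and 1 lower, and 5 arginine and glutamine enzymes were higher, as also without the filter. Other carrier families had 5 genes higher without the filter and 5 with limma on log2(FPKM + 0.1). Leaving out a library gave Slc38a2 0.082 to 0.28, 1 to 2 members higher (2 without sh-NC replicate 1), 1 to 2 other SLC7 carriers higher (2 without sh-NC replicate 2), 3 to 6 other carrier families' genes higher (6 without sh-NC replicate 1, 5 without sh-1 replicate 1) and 0 to 1 lysosomal carriers higher (0 without sh-1 replicate 3 or sh-NC replicate 1). The cause of these moves was not tested.

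Groups share only the title numbers 2 and 3, and deviations of same-numbered libraries correlated at 0.0216 and -0.0421, so the numbers were not taken as pairs. With the replicate block, Slc7a5 was at -1.77, 1 member was higher and 5 lower, 0 other SLC7 carriers, 0 lysosomal carriers and 5 sensing genes were higher, and 7465 genes were called against 8648. Depth limits Slc7a2, which was not tested, and Slc38a1 and Slc7a8, for which no difference was detectable at these counts.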
